A study of Drosophila melanogaster with 58 samples.

Results

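Transcript levels of whole Drosophila embryos lacking gcm function were compared with those of wild type at stage 12, when the germ band retracts. The 4 arrays were chosen by their labels (loss of function, stage 12) out of 58 in the series, of which 25 belonged to the loss-of-function experiment and 33 to an experiment with ectopic gcm. The mutants were homozygous for the allele gcmN7-4 and were picked by a COPAS embryo sorter for lack of GFP, since their balancer carried Kr-GFP. The wild type was the OregonR strain, handled alike, and poly(A) RNA of both was put on the same glass array with the dyes Cy5 and Cy3. Replicates 1 and 2 carried the mutant RNA in Cy3, replicates 3 and 4 in Cy5. The mutant and the wild type thus differ in strain background as well as in gcm, and these cannot be told apart. In whole embryos, fewer cells of a type and less RNA per cell cannot be told apart either. The design text calls the hybridizations independent experiments without naming the collections. Unless said otherwise, p-values measure the spread between arrays of a group, taken over all 58 arrays, and this spread may be partly technical.

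gcm (glial cells missing) encodes a zinc-containing transcription factor that switches neural precursors from neuronal to glial fate. It and its neighbour and paralogue gcm2 also act in embryonic haemocytes, the precursors of the phagocytic plasmatocytes and of the crystal cells that carry prophenoloxidases. At stage 12 the first glia express repo and loco, haemocytes spread from the head, and neuroblasts still divide.

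Every value below is a log2 ratio of mutant over wild type, where 1 is a doubling, after each array was centred on the median of its probes. The 4 arrays measured 22039, 21785, 17134 and 20612 of 23808 probes in the order of replicates 1 to 4. The deposited values are ratios without intensities, so neither the level of a transcript nor its signal over background could be given. Nor could markers of tissue be checked for presence.

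gcm itself was not called changed at stage 12. Its log2 ratio was -1.22, -0.40 and -0.30 on replicates 1, 2 and 3, and 0.74 on the array labelled replicate 4. The first 3 arrays thus had less gcm RNA in mutants, and the fourth had more. The fitted value was -0.30 ± 0.29, with an adjusted p of 0.66 in limma, where the SE (±) rests on the spread of all 58 arrays. The SD of the 4 gcm values was 0.81. Every ± below is such an SE and does not measure the spread of a gene's own 4 arrays. Without the array labelled replicate 4 the fitted value was -0.58 (adjusted p = 0.31). The mean of the other 5 loss-of-function stages was -1.08 ± 0.13 (adjusted p = 5.75e-09), and stage 12 minus that mean was 0.79 ± 0.31 (adjusted p = 0.20). With ectopic gcm at stage 12 the same probe read 1.59 ± 0.29 (adjusted p = 0.00059). The sources used here do not give where the probe lies relative to the lesion of the allele, so RNA from the mutant gene may still be detected. Because gcm goes against the label of one array, that array is called the array labelled replicate 4.

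The array labelled replicate 4 agreed least with its group. Its Spearman correlation across probes with the mean of the other 3 arrays was -0.02, the lowest of the 25 loss-of-function arrays, and turning its sign gave only 0.02. Replicates 1, 2 and 3 reached 0.09, 0.16 and 0.29 with the mean of the others. By pairs, the array labelled replicate 4 correlated with replicate 3, of its own dye orientation, at 0.216, with replicate 2 at 0.00257 and with replicate 1 at -0.145. The pairs among replicates 1, 2 and 3 lay between 0.195 and 0.292. Probes of an array share its hybridization and dye bias, so these correlations are descriptions.

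The picture changed where the repeat spots of a probe agreed. With only the spot pairs whose SD was under 0.333, the array labelled replicate 4 correlated with the mean of the others at 0.275 over 4677 probes, and 59.2% of them had the same sign. Replicates 1, 2 and 3 then reached 0.611, 0.620 and 0.674. Its pair with replicate 3 was at 0.483, while its pairs with replicates 2 and 1 were 0.297 and 0.148, and the pairs among the first 3 lay between 0.572 and 0.780. On these probes the array labelled replicate 4 thus correlated positively with each other array, less closely than those did among themselves. Its closest pair was with the array of its own dye orientation, so a shared dye bias cannot be told apart. Agreement of repeat spots is not a measure of signal, and gcm had no test on these spot pairs. Whether the label of this array is right was not tested.

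**Figure D1:**
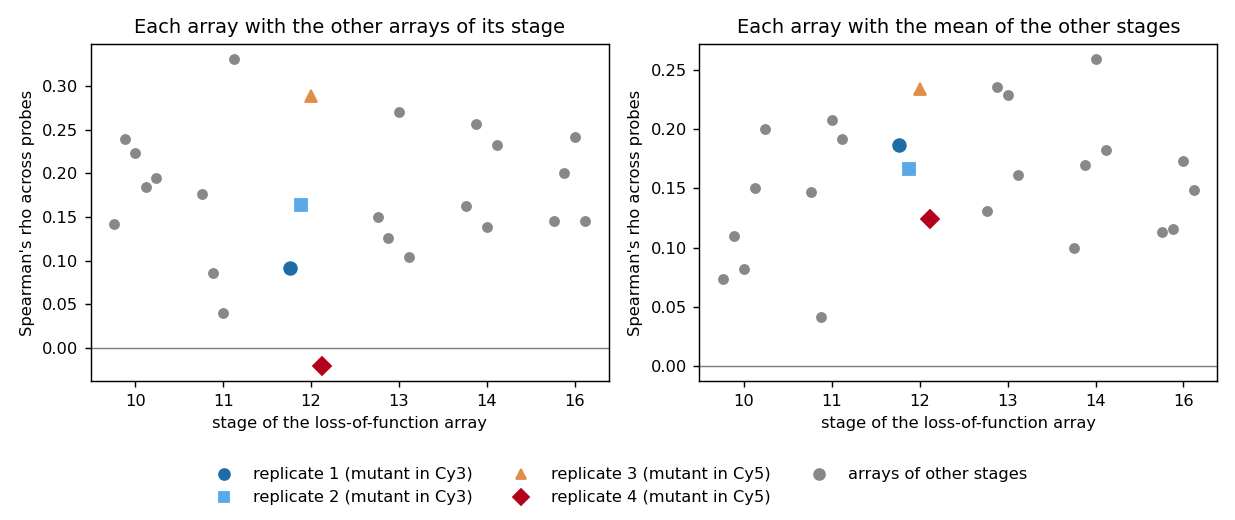
Spearman's rho across probes for each of the 25 loss-of-function arrays, on the left with the mean of the other arrays of its stage and on the right with the mean of the other stages, by stage on the x axis; coloured symbols are the 4 arrays of stage 12 and grey points the others. On the left the array labelled replicate 4 is the one point under 0, at -0.02, while on the right, at 0.12, it lies among the rest.

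Against the other stages, which share no array with it, the array labelled replicate 4 was less unusual. Its correlation with their mean was 0.124, the eighth lowest of 25, where replicates 1, 2 and 3 had 0.187, 0.166 and 0.234. Among probes called in the mean of the other stages, 61.4% had the same sign on it, compared with 75.0%, 80.7% and 74.8% on replicates 1, 2 and 3. The share depended on the size of the change in those stages. It was 55.9% of 1471 probes changed by under 0.5 on the log2 scale, 63.1% of 1532 probes between 0.5 and 1, 73.5% of 374 probes between 1 and 2, and 100% of 28 probes at 2 or more. Strong changes that recur at other stages were therefore seen on this array with the labelled sign, and weak ones hardly more often than by an even split. Its values also spread more widely, with a median absolute deviation of 1.398, the second widest of the 25 arrays, against 1.013, 0.897 and 0.894 on replicates 1, 2 and 3.

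**Figure D2:**
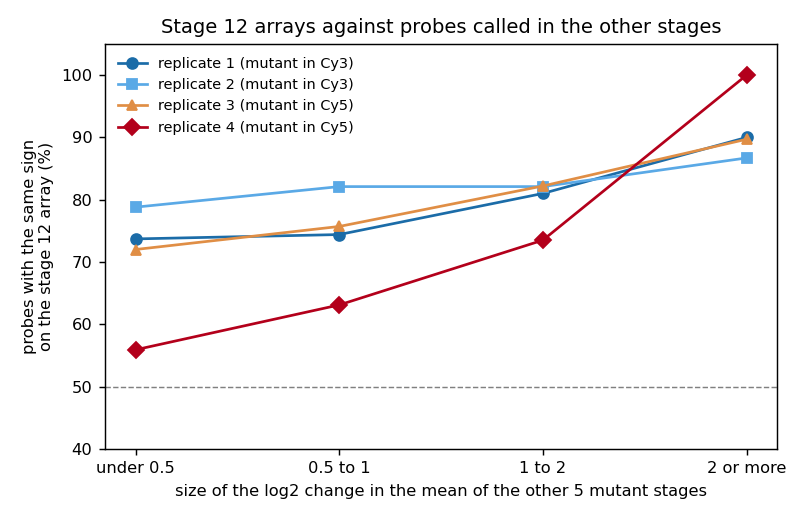
Percent of probes with the same sign on a stage 12 array as in the mean of the other 5 mutant stages (y axis), by the size of the log2 change in those stages (x axis), over probes called there; each line is 1 array and the dashed line marks 50%. The array labelled replicate 4 starts at 55.9% and reaches 100% of 28 probes, while replicates 1, 2 and 3 stay between 72.0% and 90.0%.

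Across all probes, 1490 of 20361 were called (7.32%) at an adjusted p under 0.05, 898 higher and 592 lower in mutants. With 1 probe a gene, 526 of 10779 genes rose (4.88%) and 424 fell (3.93%), of which 158 and 254 changed at least 2-fold. The split of directions rested on 1 array. Without the array labelled replicate 4, 226 genes rose and 599 fell. The median of all genes was -0.28, -0.11 and -0.04 on replicates 1, 2 and 3 and 0.32 on the array labelled replicate 4. The number of calls rested on the spread, which the fit took from all 58 arrays. The median absolute deviation was 0.976 in the median loss-of-function array and 0.737 in the median array with ectopic gcm. With the spread of the 25 loss-of-function arrays alone, 324 probes were called. With the 4 arrays of stage 12 alone limma called 0, and 2279 had an unadjusted p under 0.05. Of the 96 called genes named by the rule, 61 of the 89 still tested kept the call without the array labelled replicate 4, 36 of 96 kept it with loss-of-function arrays alone, and 34 kept it in both. Calls were also lost without other arrays: 78 of 95 were kept without replicate 1, 67 of 95 without replicate 2 and 57 of 89 without replicate 3. All 50 that could be tested on spot pairs with an SD under 0.333 kept the call there. On those pairs 2522 of 5710 tested probes were called, against 1490 of 20361 in the main fit, so a call kept there adds little. The genes that kept the call in both of these checks, without the array labelled replicate 4 and with loss-of-function arrays alone, were yl, Rab9D, Mal-A1, slo, CG8607, Marf1, Cyp6v1, slam, Osi7, swa, smg, Osi6, hoe1, CG14395, twe, dpy, brat, baz, Orc1, wb, uif, wor, Hr4 and sli, which rose, and dmrt11E, Prx6b, SNCF, CG7966, CG12896, Alp7, Nagk, NimC4, spi and Men, which fell. Rab9D and dmrt11E had no value on the array labelled replicate 4, so leaving it out could not test them. The same holds for CG31131, CG3581, CG15370, CG7907 and dyw, which are among the 61. The call of dmrt11E was lost without replicate 2. Every other call named below was lost or untested in at least 1 of these checks.

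Large changes at stage 12 of 1 sign on all arrays included the fall of Prx6b and the rise of an oocyte receptor, a maltase and a potassium channel transcript. Prx6b, a peroxiredoxin, which reduces peroxides, had -3.41, -3.29, -2.85 and -3.55 on replicates 1, 2, 3 and the array labelled replicate 4. The 4 arrays lay close together, and the fitted value was -3.28 ± 0.32, or 9.69-fold lower in mutants (adjusted p = 1.91e-09). It also fell in the mean of the other stages (-1.73 ± 0.14), and the fall at stage 12 was the deeper one, with a difference of -1.55 ± 0.35 (adjusted p = 0.015, but 0.068 without the array labelled replicate 4). CG7966 read -2.47, -2.78, -3.23 and -3.17, with a fitted value of -2.91 ± 0.42 (adjusted p = 1.6e-05), with a difference of -1.72 ± 0.46 from the other stages (adjusted p = 0.042, but 0.10 without that array). CG12896 read -3.38, -3.58 and -2.94 on replicates 1, 2 and 3 and -1.31 on the array labelled replicate 4. Its fitted value was -2.80 ± 0.36 (adjusted p = 1.17e-06), with the first 3 arrays lowest. All 3 kept their call at stage 12 in both checks.

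At the other end, yl, the vitellogenin receptor of the oocyte, had 2.92, 2.76, 3.36 and 4.36, with the array labelled replicate 4 highest. Its fitted value was 3.35 ± 0.44, or 10.2-fold higher in mutants (adjusted p = 4.58e-06), and the other stages gave 3.37 ± 0.22. Mal-A1, a maltase, read 2.61, 2.17, 2.61 and 4.86 and rose by 3.06 ± 0.57 (adjusted p = 0.00063). The gene slo, of a calcium-activated potassium channel, read 3.17, 2.04, 2.89 and 3.56, close together on all arrays, and rose by 2.92 ± 0.61 (adjusted p = 0.0022). CG8607 (2.81 ± 0.45) and Cyp6v1, a cytochrome P450 (2.55 ± 0.58), rose and were also called in the mean of the other stages. Rab9D, a Rab-family GTPase, was measured on 3 arrays at 2.57, 2.63 and 4.69 and not on the array labelled replicate 4. It rose by 3.19 ± 0.66 (adjusted p = 0.0018), while the other stages gave 0.03 ± 0.27.

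Several of the most extreme values rested on 1 array. CG31131, with the lowest fitted value (-4.77 ± 0.92), had -3.46, -2.87 and -7.30 on replicates 1, 2 and 3. CG30099 had -8.33 on replicate 3 and between -3.29 and -0.96 on the others. CG15370, CG4004, CG7907 and dyw had -6.84, -6.78, -5.90 and -5.21 on replicate 3, and no other array of theirs went below -2.22. The second probe of CG4004 read 0.11 and was not called. Ir7g, an ionotropic receptor gene, had 8.74 on the array labelled replicate 4 and 1.23 to 2.73 on the others. Hsp68, the highest fitted value (3.77 ± 1.13, adjusted p = 0.036), was measured on 3 arrays at 2.77, 4.17 and 4.51. None of these but Hsp68 kept the call with loss-of-function arrays alone, and Hsp68 was not tested without the array labelled replicate 4.

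**Figure D3:**
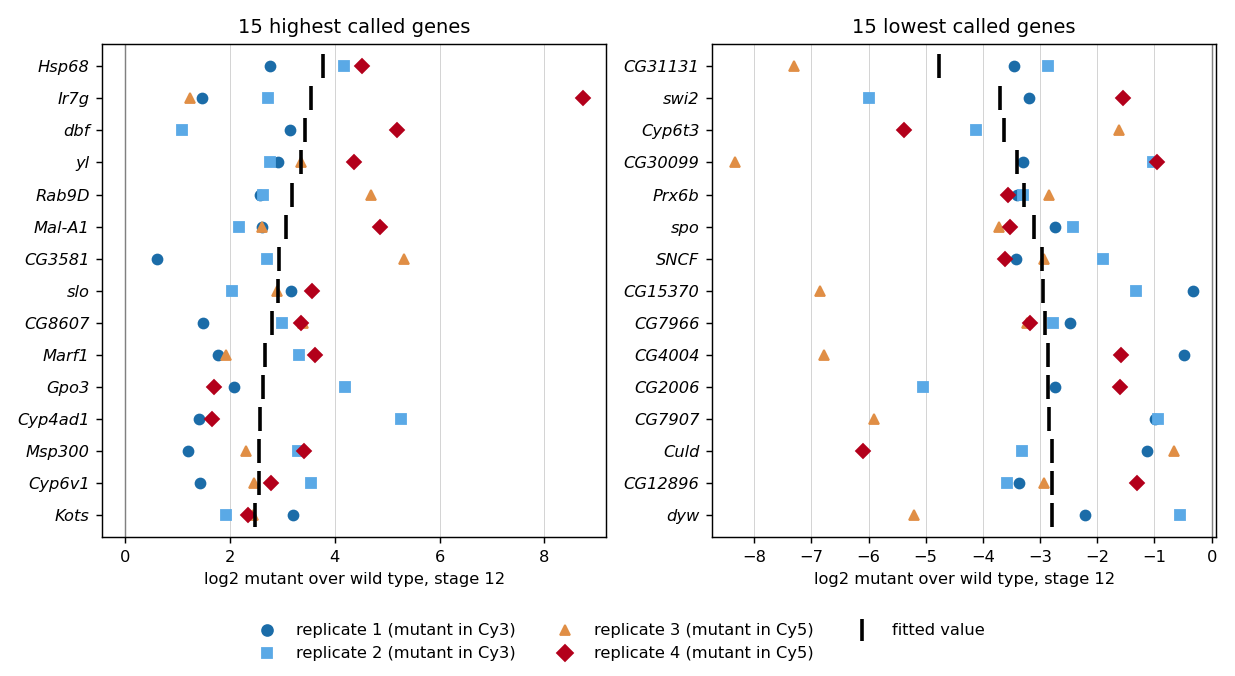
Log2 mutant over wild type at stage 12 (x axis) of the 15 highest and 15 lowest called genes with the same sign on every measured array; symbols are the 4 arrays and the black bar the fitted value. Prx6b, CG7966, yl and slo have their arrays close together, while CG30099, CG15370 and Ir7g are carried by 1 array.

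Among blood cell genes, NimC4, Pxn and Men fell in mutants. Of 23 plasmatocyte genes tested, 2 fell and 1 rose, with a median of -0.34, compared with -0.07 over all genes. Over all genes 3.93% fell and 4.88% rose, and with so few calls the count says little about the group. NimC4, a phagocytic receptor for apoptotic cells, had -2.11, -1.94, -1.30 and -0.57, lower in mutants on every array and least so on the array labelled replicate 4. It fell by 1.48 on the log2 scale (SE 0.26, 2.79-fold, adjusted p = 0.00023), also with loss-of-function arrays alone, and the other stages gave -1.77 ± 0.12. Pxn, the peroxidasin that haemocytes secrete, had -0.87, -1.24, -1.82 and -0.77 and a fitted value of -1.17 ± 0.35 (adjusted p = 0.033), lost with loss-of-function arrays alone. The scavenger receptor gene crq, for clearance of dead cells, had -1.79, -1.31 and -0.76 on replicates 1, 2 and 3 and 0.64 on the array labelled replicate 4. It was not called (-0.80 ± 0.27, adjusted p = 0.064), but was without that array (-1.25, adjusted p = 0.0057). The member that rose was ush, a GATA cofactor with roles beyond blood, at 0.62 ± 0.20 (adjusted p = 0.042), with 1.74 on the array labelled replicate 4 and no call without it. Hml and eater, further plasmatocyte genes, had arrays of both signs and no call.

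Of 8 crystal cell genes tested, 1 fell (Men) and 1 rose (klu, a transcription factor gene also listed for neuroblasts), with a median of -0.16. Over all genes 3.93% fell and 4.88% rose, so this count too says little about the group. PPO2 read nearer to wild type at stage 12 than in the mean of the other stages. PPO2, a prophenoloxidase, had -1.21, -1.10, -0.66 and -0.21, all below 0. Its fitted value of -0.79 ± 0.37 was not called (adjusted p = 0.22), whereas the other stages gave -2.52 ± 0.16, between -2.73 and -2.16 by stage. The difference, 1.73 ± 0.40, was called (adjusted p = 0.020), but not without the array labelled replicate 4 (1.49, adjusted p = 0.090). PPO1, its relative, gave -0.43 ± 0.39 at stage 12 and -1.77 ± 0.18 elsewhere, with a difference of 1.34 ± 0.43 that missed the threshold (adjusted p = 0.093). At stage 10 alone PPO1 read -0.52, and at stage 12 without the array labelled replicate 4 it read -0.773. Men, the malic enzyme, had -1.88, -0.98, -1.07 and -0.49 and fell by 1.10 on the log2 scale (SE 0.22, adjusted p = 0.0010), in both checks as well. Its second probe read 0.54 and was not called. lz, the Runx factor of crystal cells, read 0.20 ± 0.24 and was not called.

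Glial regulators gave 0 calls among 10 tested genes in limma, with 4 higher and 1 lower at an unadjusted p under 0.05, and a median of 0.16. repo, the homeobox gene that gcm switches on in glia, had 0.04, 0.25 and 0.51 on replicates 1, 2 and 3 and -0.98 on the array labelled replicate 4, and a fitted value of -0.05 ± 0.20 (adjusted p = 0.95). loco, a regulator of G protein signalling expressed in glia, had -0.37, 0.16, 0.74 and 1.02, with no common sign. Its fitted value of 0.39 ± 0.17 was not called (adjusted p = 0.18), but the other stages gave -0.43, and the difference of 0.82 was called (adjusted p = 0.014), though not without the array labelled replicate 4 (0.66, adjusted p = 0.091). The second probe of loco gave a difference of 0.83 that was not called (adjusted p = 0.33). Among 27 genes of glial subtypes, Nagk, which encodes a sugar kinase, fell on all arrays at -1.75, -1.47, -1.92 and -1.01 (fitted -1.54 ± 0.29, adjusted p = 0.00052), as elsewhere (-1.56 ± 0.13). hoe1, a transporter-like gene, had 0.73, 1.16, 2.16 and 2.60 and rose by 1.66 ± 0.32 (adjusted p = 0.00078), although its other tested probe read 0.59 and was not called. With ectopic gcm at stage 12 hoe1 was called higher as well (1.96), so its rise was not particular to the mutant.

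Of 21 genes of septate junctions, the barrier of glia and epithelia, 4 fell and 1 rose, where 3.93% of all genes fell and 4.88% rose. The group's median was -0.894, -0.537 and 0.0025 on replicates 1, 2 and 3 and 0.408 on the array labelled replicate 4, so its sign differed between arrays. bou and crim, Ly6 proteins needed for these junctions, fell by 0.90 and 0.82 on the log2 scale, and the claudin genes sinu and kune by 0.79 and 0.64, at adjusted p of 0.015 to 0.047. For each of these 4, replicate 1 or 2 was the lowest, and the array labelled replicate 4 lay between -0.57 and 0.24. Their other-stage means were -0.95, -0.81, -0.84 and -0.79, and no difference was called. scrib, a cell polarity gene also used in other tissues, rose by 0.85 ± 0.22 (adjusted p = 0.0096). All 5 kept the call without the array labelled replicate 4 and none with loss-of-function arrays alone, and scrib's second probe read 0.10 and was not called. Gli and nrv2, core members, read -0.34 ± 0.22 and -0.21 ± 0.21.

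Neural precursor genes that changed were higher in mutants. Of 27 neuroblast genes tested, 6 rose and 0 fell, with a median of 0.26, and 4 were lower at an unadjusted p under 0.05. Over all genes 4.88% rose and 3.93% fell. The median of the neuroblast genes was -0.25, 0.084 and 0.487 on replicates 1, 2 and 3 and 1.09 on the array labelled replicate 4. Without that array 5 rose, and with loss-of-function arrays alone 3. brat, which holds back self-renewal in daughter cells, had 0.53, 0.64, 1.73 and 1.76, and baz, the Par-3 polarity gene, 0.48, 0.63, 1.32 and 1.61. Both had higher readings where the mutant was in Cy5, with fitted values of 1.17 ± 0.19 (adjusted p = 7.11e-05) and 1.01 ± 0.16 (adjusted p = 4.93e-05). wor, a Snail-family factor of neuroblasts, had 0.34, 0.80, 0.83 and 1.87 and rose by 0.96 ± 0.19 (adjusted p = 0.00091), where the mean of the other stages was -0.03 ± 0.08 (difference 0.99 ± 0.21, adjusted p = 0.0070, but 0.081 without the array labelled replicate 4). That mean joins called changes of opposite sign, -1.28 at stage 10 and 0.60 at stage 13. brat and baz were also called higher at stage 13 (1.75 and 1.13). These 3 kept the call at stage 12 in both checks. klu (0.73), grh (0.73) and ind (0.63), all transcription factor genes, rose too, and the further probes of grh (0.40 and -0.64) were not called. At stage 10 klu and grh were called lower (-1.15 and -0.78), and at stage 13 klu was called higher (0.68). The neuroblast markers dpn, ase and mira were not called, at -0.25, 0.09 and -0.05.

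Among neuronal genes, 1 of 23 differentiation genes rose, the potassium channel gene eag (0.65 ± 0.17), and elav and nSyb were not called, at 0.34 and 0.05. The second probe of eag read 0.48 and was not called. Of 23 genes of neuronal identity odd rose by 0.54 and Oli fell by 0.75 on the log2 scale, the second at an adjusted p of 0.0499. Among 12 midline genes the guidance ligand gene sli had 0.96, 0.61, 1.06 and 0.76 and rose by 0.85 ± 0.18 (adjusted p = 0.0015), with all arrays close. spi, the ligand of the EGF receptor, had -1.85, -1.52, -0.95 and -0.67 and fell by 1.25 on the log2 scale (SE 0.26, adjusted p = 0.0018). Both kept the call in both checks. Tl and S also rose, by 0.95 and 0.49. With ectopic gcm at stage 12 Tl was called higher too (0.74). The call of S was lost when replicate 2, replicate 3 or the array labelled replicate 4 was left out.

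Matrix genes moved both ways. wb and LanA, the 2 laminin alpha chains, rose at stage 12. wb had 0.53, 0.72, 1.52 and 1.10 (fitted 0.97 ± 0.18, adjusted p = 0.00035) and LanA 0.78, 0.41, 1.70 and 0.64 (fitted 0.88 ± 0.20, adjusted p = 0.0036). Replicate 3 was highest for both, and no array was below 0. Against the other stages the differences were 1.04 ± 0.19 (adjusted p = 0.0020) and 0.98 ± 0.22 (adjusted p = 0.014), and both were also called without the array labelled replicate 4. By stage, wb was lower in mutants at stages 10 and 11 (-0.69 and -0.62) and higher at 13 (0.61). Of 21 basement membrane genes, Pxn and PH4alphaEFB, a collagen prolyl hydroxylase, fell. The collagen genes vkg and Col4a1 were not called, at 0.17 and -0.20. Only wb of these kept the call with loss-of-function arrays alone.

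Among epidermal and tracheal genes, Osi6, Osi7 and uif rose at stage 12 beyond their mean of other stages. Osi6 and Osi7 belong to the Osiris family, membrane proteins of cuticle-forming cells, a group picked after its values were seen. Osi7 had 2.14, 1.16, 2.74 and 2.20, all arrays well above 0, and rose by 2.06 ± 0.40, or 4.17-fold (adjusted p = 0.00078), against -0.25 ± 0.18 in the other stages (difference 2.31 ± 0.44, adjusted p = 0.0031). Osi6 had 1.53, 1.05, 2.99 and 1.18 and a difference of 2.23 ± 0.41 (adjusted p = 0.0022). Both were called at stage 12 in both checks, and the differences also without the array labelled replicate 4. Osi8 and Osi24 rose as well, without the call when the array labelled replicate 4 was left out, so 4 of 22 family members rose, where 4.88% of all genes did. At stage 14 Osi7 was also higher in mutants (1.44 ± 0.40, adjusted p = 0.038). Of 12 tracheal genes 3 rose and 0 fell, where 4.88% of all genes rose and 3.93% fell. They were the apical matrix and membrane genes dpy (1.50 ± 0.33) and uif (0.96 ± 0.20), and bnl, the FGF ligand (0.69 ± 0.15). dpy read 1.97, 2.36 and 1.69 on replicates 1, 2 and 3 and -0.02 on the array labelled replicate 4, and its further probes (0.75 and 1.77) were not called. vvl and btl, tracheal regulators, were not called, at 0.34 and 0.56. Of the 26 cuticle and epidermis genes 1 rose, grh.

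Ecdysone-related genes that changed were mostly higher. Of 17 tested, 6 rose and 1 fell, where 4.88% of all genes rose and 3.93% fell. The group's median was -0.424, 0.138 and 0.454 on replicates 1, 2 and 3 and 0.997 on the array labelled replicate 4, so its sign differed between arrays. Without that array 4 rose and 0 fell. ImpE2, an ecdysone-inducible gene, had 1.15, 0.60, 2.06 and 1.76 and rose by 1.39 ± 0.36 (adjusted p = 0.010), against -0.44 ± 0.16 elsewhere (difference 1.83 ± 0.39, adjusted p = 0.0098). EcR, the receptor, rose by 0.81 ± 0.20, and Hr4, a nuclear receptor, by 0.88 ± 0.20, the one of the 6 that kept the call with loss-of-function arrays alone. The second probe of Hr4 read 0.28 and was not called. With ectopic gcm at stage 12 EcR was called higher as well (1.31). Its second probe rose by 1.01 in mutants at stage 12 and was not called with ectopic gcm (0.55). The member that fell was spo, a P450 of ecdysteroid synthesis, at -2.74, -2.43, -3.73 and -3.53 (fitted -3.11 ± 0.88, adjusted p = 0.023). Its call was lost when any 1 of the 4 arrays was left out, while the value stayed between -3.19 and -3.04. At stage 13 spo was 6.43 ± 1.03 (adjusted p = 3.16e-05), and it was measured on too few arrays of stage 16 for the test of the difference. ImpL1, outside the list, rose by 1.59 ± 0.49 at stage 12 and gave -1.03 elsewhere.

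**Figure D4:**
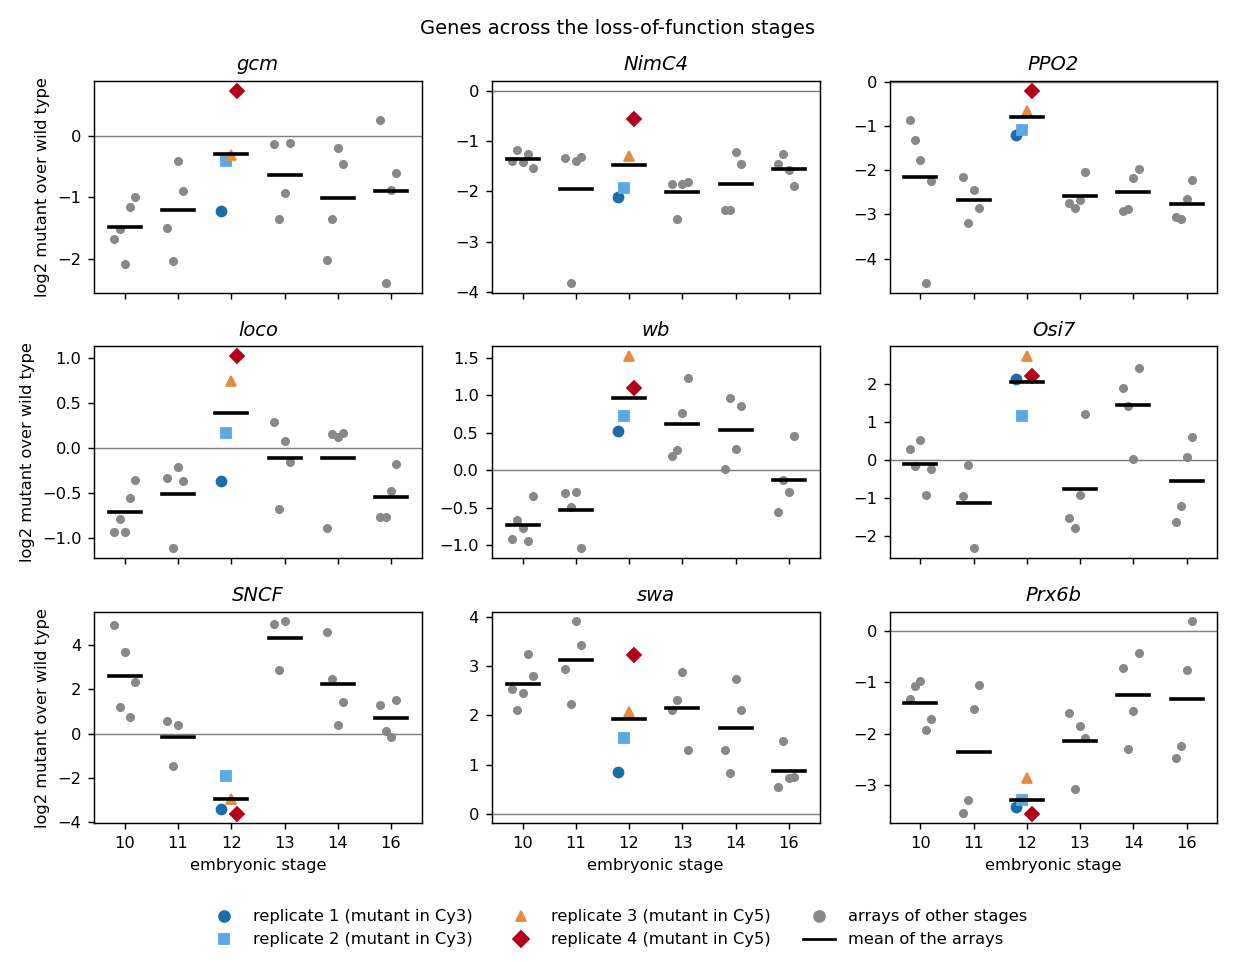
Log2 mutant over wild type (y axis) of 9 genes on every loss-of-function array by stage (x axis); coloured symbols are the 4 arrays of stage 12, grey points the arrays of the other stages and bars the means. PPO2 is nearest to 0 at stage 12, wb and Osi7 are above 0, SNCF is below 0 on all 4 arrays, and swa is above 0 at every stage.

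Maternal transcripts that changed at stage 12 were higher in mutants. Of 36 maternal and germline genes, 8 rose and 0 fell, with a median of 0.56 and 1 lower at an unadjusted p under 0.05. Over all genes 4.88% rose and 3.93% fell, with a median of -0.07. swa, which localizes RNA in the oocyte, had 0.85, 1.54, 2.06 and 3.23 (fitted 1.92 ± 0.25, adjusted p = 1.9e-06), and smg, a repressor of maternal RNAs, had 0.74, 1.68, 2.37 and 2.87 (fitted 1.91 ± 0.25, adjusted p = 1.86e-06). Both were higher on every array, most on the array labelled replicate 4, with other-stage means of 2.05 and 1.60. Marf1, an oocyte gene, rose by 2.66 ± 0.48, and BigH1, the embryonic linker histone, by 2.12 ± 0.47. gnu, a subunit of a kinase of the egg-to-embryo transition, had 6.30 on the array labelled replicate 4 and between -0.08 and 1.07 on the others, and lost the call without it. Without that array 4 of the 36 rose, and with loss-of-function arrays alone 5. The rise was not particular to the mutant. With ectopic gcm at stage 12 the group's median was 0.635. There swa (2.07), smg (2.30), Marf1 (3.07) and BigH1 (2.09) were called higher too, and gnu (0.45) was not called. twe, the meiotic Cdc25 phosphatase, and Orc1, of the origin recognition complex, were the 2 of 19 cell cycle genes that rose, by 1.63 ± 0.30 and 0.97 ± 0.18, and kept the call in both checks. With ectopic gcm at stage 12 they were called higher as well (1.85 and 1.37).

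Among early zygotic genes SNCF fell at stage 12. This group of 11 tested genes was picked after its values were seen. SNCF, a gene of the early embryo, had -3.42, -1.89, -2.93 and -3.61, low on all arrays, and fell by 2.96 on the log2 scale (SE 0.61, 7.79-fold, adjusted p = 0.0019). The other stages gave 1.96 ± 0.29, with 2.48 at stage 10 and 4.11 at stage 13, and the difference of -4.93 ± 0.68 had an adjusted p of 7.97e-05. Sry-alpha had -1.49, -1.56, -1.001 and -0.99 without a call (adjusted p = 0.13), while its second probe, on 3 arrays, fell by 2.89 (adjusted p = 0.0027). halo and nullo, of cellularisation, were lower in mutants on replicates 1, 2 and 3 and read 3.67 and 0.64 on the array labelled replicate 4, with no call. slam, also of cellularisation and maternally supplied, had 0.84, 1.48, 1.46 and 4.75 and rose by 2.13 ± 0.39 (adjusted p = 0.00042), as elsewhere (2.20 ± 0.17).

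**Figure D5:**
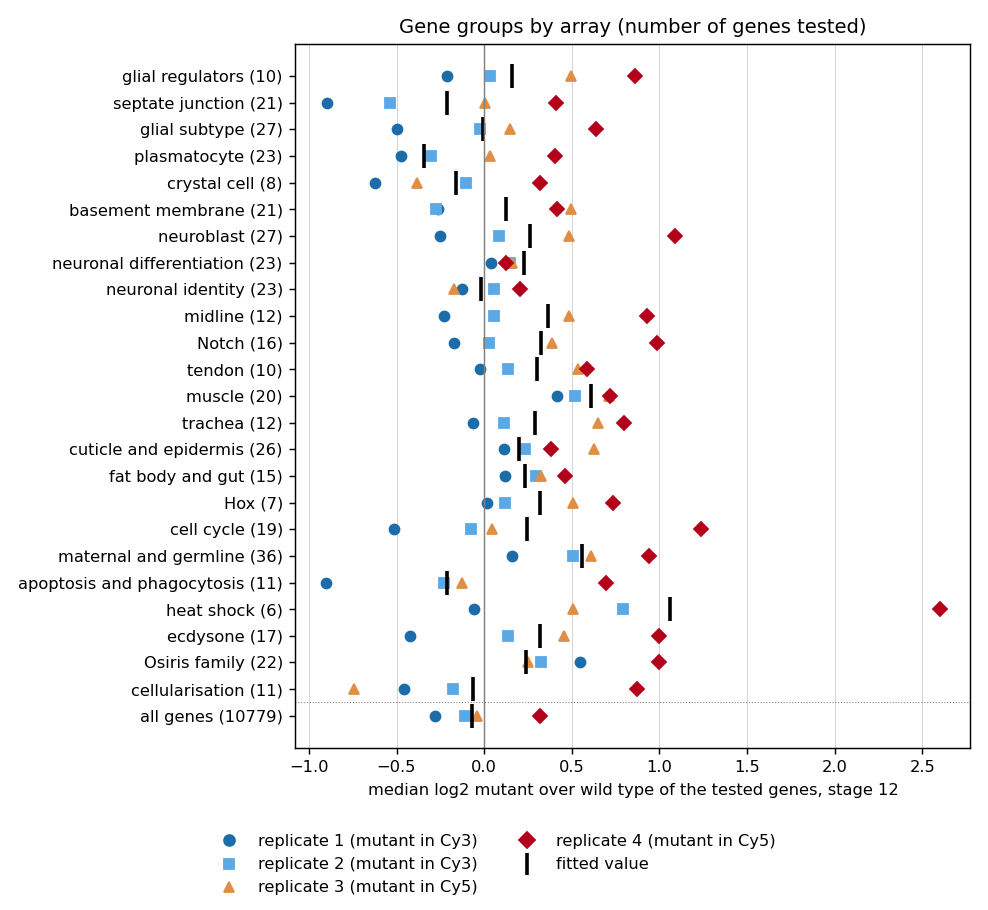
Median log2 mutant over wild type at stage 12 (x axis) of each gene group on each array, with the number of genes tested in brackets; symbols are the 4 arrays and the black bar the median of the fitted values, with all genes in the last row. The array labelled replicate 4 has the highest median in all groups but basement membrane, neuronal differentiation and cuticle, 0.32 over all genes and 2.60 over 6 heat shock genes.

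Of 6 heat shock genes tested, Hsp68, Hsp70Bb and Hsp26 rose and the other 3 were not called, where 4.88% of all genes rose. Without the array labelled replicate 4, 1 rose. The group's median was -0.06, 0.80 and 0.51 on replicates 1, 2 and 3 and 2.60 on the array labelled replicate 4. Hsp70Bb had 1.18, 1.67, 2.38 and 3.49 (fitted 2.18 ± 0.50, adjusted p = 0.0036), higher in mutants on every array, and its 3 other probes rose too. Copies of this gene are near identical, so its probes may read several of them. It kept the call without that array, while Hsp26 lost it and Hsp68 was not tested. Hsp26, a small heat shock gene, rose by 1.50 ± 0.42, against -0.30 ± 0.19 in the other stages (difference 1.80 ± 0.46, adjusted p = 0.032, but 0.14 without the array labelled replicate 4). The part of the heat shock genes' rise in other results of that array was not tested.

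Of the remaining groups, few members were called, where 4.88% of all genes rose and 3.93% fell. Among 20 muscle genes lmd, a factor of fusion-competent myoblasts, had 0.36, 0.88, 0.89 and 1.85 and rose by 1.00 ± 0.23 (adjusted p = 0.0040), lost without the array labelled replicate 4, with a difference of 1.65 ± 0.25 from the other stages (adjusted p = 0.00017). It was lower in mutants at stages 10 and 11, by -1.59 and -1.98. Msp300, twi and sns were called higher as well, and all lost the call without that array. Msp300 also lost it without replicate 2 or replicate 3, and sns without any 1 of the arrays. Of 16 Notch pathway genes H and kuz rose, and of 7 Hox genes Scr and Antp. All 4 lost the call without the array labelled replicate 4, and kuz and Antp also without replicate 3. Of 15 fat body and gut genes GATAe rose by 0.54, lost without either of these 2 arrays. With ectopic gcm at stage 12 H was called higher too (0.99). None of 10 tendon genes was called, with 4 higher and 1 lower at an unadjusted p under 0.05 in limma. Of 11 genes of apoptosis and phagocytosis egr, the tumour necrosis factor ligand, had -0.91, -0.88, -0.81 and -1.64 and fell by 1.06 on the log2 scale (SE 0.25, adjusted p = 0.0058), against 0.34 ± 0.12 elsewhere (difference -1.40 ± 0.28, adjusted p = 0.0051).

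Of the genes next to gcm on the chromosome, 2 of the 9 other than gcm2 were called, where 4.88% of all genes rose and 3.93% fell. Trx2, a thioredoxin gene, had -0.75, -1.11, -3.44 and -0.51 and fell by 1.45 on the log2 scale (SE 0.39, adjusted p = 0.015), and jp rose by 0.49 (adjusted p = 0.033), lost without the array labelled replicate 4. gcm2 read -0.21 ± 0.54.

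Set against the mean of the other loss-of-function stages, 102 of 9018 genes were higher at stage 12 (1.13%) and 71 lower (0.787%). Beside those described, the genes most raised relative to other stages were dbf (3.60 ± 0.78), mEFTu1, a mitochondrial translation factor (3.19 ± 0.45), CG6026 (2.03 ± 0.44) and CG14395 (1.98 ± 0.36). mEFTu1 had 2.11, 0.26 and 3.79 on replicates 1, 2 and the array labelled replicate 4, so its size differs widely by array. Genes lowered relative to other stages included CG31131 (-6.78 ± 1.00), swi2 (-4.39 ± 1.14), dmrt11E (-3.52 ± 0.84), CG7907 (-3.31), CG15370 (-3.10) and Alp7, an alkaline phosphatase (-2.95 ± 0.58). dmrt11E, of the doublesex family, had 0.23, -6.96 and -4.41, and its second probe was not called at -0.05. Alp7 had -0.26, -1.22, -4.57 and -4.41, low on the arrays with the mutant in Cy5. Of 9018 genes tested in both, 921 were called at stage 12 and 2586 in the mean of the other stages. Both calls held for 514, which is 55.8% of the 921 and 19.9% of the 2586, and 495 of them had the same sign. The calls take their spread from the same fit, so they are not independent. Of 37 genes named here whose difference was called, 20 of the 34 still tested kept it without the array labelled replicate 4, among them SNCF, lmd, wb, LanA, uif, egr, Osi6, Osi7, ImpE2 and CG14395. The 20 also hold CG31131, dmrt11E, CG7907, CG15370, dyw and Rab9D. These had no value on that array, so leaving it out could not test them. With loss-of-function arrays alone, the difference was called for 3 of the 37 (SNCF, lmd and CG14395) and for 6 probes in all, against 252.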

How the data were processed

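The authors deposited a log2 ratio (Cy5 divided by Cy3) for each spot. Per the labels and the series design text, the authors scanned with ScanArray 3.1, quantified with GenePix 5.0 and kept arrays by the SD of repeat spots. Background correction and normalization are not given in the sources used here. Base 2 was inferred from steps among low values. Each array held 47616 spots in 48 blocks of 992, and the 2 spots of a probe, 1984 apart, were averaged. Exact zeros and values of 9 or more in size were taken as missing. On the array labelled replicate 4, 3301 spots sat at such values. Arrays were then centred (median of all probes) and signs set to mutant over wild type by the labels.

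In R 4.3.3, a least squares model per probe was fitted to all 58 arrays, with 14 group coefficients and 2 dye terms, and limma 3.58.1 moderated the residual variances, to which every array adds. Probes on at least 3 of the 4 arrays and in both dye orientations were tested, two-sided, with Benjamini-Hochberg adjustment over all of them and a threshold of 0.05. The script was tested on simulated data. An exact sign test on 4 arrays cannot go below 0.125 and was not used.

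Of 23808 probes, 13455 had 1 gene name, 153 several and 10200 none, giving 11663 genes, 1 probe each (the one measured on most arrays). Names came from the platform annotation, updated through RefSeq for 12851 probes. The genes named are gcm, gcm2 and 5 neighbours on each side, the 15 highest and 15 lowest called genes of 1 sign on all arrays, up to 6 called genes a list, the largest members of 5 lists, and the 10 highest and lowest in the difference. Others, given as markers of a list, were chosen after their values were seen. Lists and groups were chosen with earlier results of these data known. The array count limits precision. Figures used Python 3.11.15 and matplotlib 3.10.9. Promoters were not used here.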

Additional observations from a re-analysis of the deposited data

Results flagged for a closer look

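On single arrays, 4 values lay apart from the other 3 arrays of their gene by Dixon's criterion, among 98 named genes measured on all 4. They were Mal-A1 (4.858), egr (-1.636) and slam (4.75), each on the array labelled replicate 4, and CG3841, a neighbour of gcm, on replicate 3 (-3.611). Chance alone marks about 1 in 20 such groups.

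The other marked results are named genes whose log2 ratio at stage 12 differed from the mean of the other loss-of-function stages by the model's own test, 24 higher and 13 lower. Among genes of the lists the differences were 1.044 for wb, 0.9835 for LanA, 0.9925 for wor, 0.7084 for baz, 0.6926 for klu, 0.8932 for Tl, 1.003 for uif, 0.6091 for bnl, 1.649 for lmd, 0.626 for Scr, 0.8998 for ush, 0.8193 for loco and 1.725 for PPO2. Of these, only wb, LanA, uif and lmd kept the call without the array labelled replicate 4. The heat shock, ecdysone and Osiris genes gave 1.798 for Hsp26, 1.829 for ImpE2, 2.306 for Osi7 and 2.233 for Osi6. Lower ones in lists were egr at -1.397 and SNCF at -4.927.

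Outside the lists, the higher differences were 3.604 for dbf, 3.189 for mEFTu1, 3.156 for Rab9D, 2.619 for ImpL1, 2.035 for CG6026, 1.982 for CG14395 and 1.851 for CG10591. The lower ones were -6.779 for CG31131, -4.388 for swi2, -3.517 for dmrt11E, -3.306 for CG7907, -3.101 for CG15370, -2.949 for Alp7, -2.902 for CG4004, -2.855 for CG16815, -2.763 for dyw, -1.723 for CG7966 and -1.546 for Prx6b. Without the array labelled replicate 4, those of CG10591, Alp7, CG7966 and Prx6b were not called. Those of swi2, mEFTu1 and dbf were not tested without it.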

How the results depend on the processing

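Against 1490 probes called at stage 12 and 252 called in the difference from the other stages, the counts were 77 and 11 without centring, 761 and 65 with arrays scaled to 1 spread, 880 and 47 with exact zeros kept, 2608 and 623 with array weights (0.14 for the array labelled replicate 4), and 324 and 6 with loss-of-function arrays alone. On spot pairs with an SD under 1/3 they were 2522 and 477, of 5710 and 2116 probes tested. The 4 arrays of stage 12 alone gave 0 in limma, with 2279 at an unadjusted p under 0.05, on few degrees of freedom. The difference was called for 118 probes without the dye term and for 488 with arrays centred on probes with a gene name, an alternative added after seeing the data, as was leaving out values of 5 or more or sparse arrays. Leaving out 1 array gave 728 to 1200 at stage 12 (lowest without replicate 3) and 77 to 311 in the difference. The share called higher at stage 12 was 60.3%, 37.0% without the array labelled replicate 4, 69.2% with zeros kept, 49.1% on spot pairs with an SD under 1/3 and 44.0% with array weights. With the replicate number as a replicate block, which rests on a shared number alone since no label pairs the arrays, 979 and 126 were called, and gcm gave -0.115. gcm stayed uncalled and below 0 in every alternative run, from -0.0469 without replicate 1 to -0.667. The rho of the array labelled replicate 4 was 0.275 on spot pairs with an SD under 1/3 and otherwise between -0.0237 and 0.0208.

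With the sign of the array labelled replicate 4 turned, 792 and 490 probes were called, 202 of the first among the 1490. Of the named genes, 16 then changed sign, without a call: Culd (0.248), twi (-0.041), slam (-0.242), Scr (-0.00288), retn (-0.313), br (-0.00388), gnu (-1.27), brwl (-0.169), mEFTu1 (-0.481), kuz (-0.0478), ush (-0.248), Ir7g (-0.831), bnl (-0.0235), S (-0.0577), dbf (-0.264) and GlcAT-S (-0.404). Uncalled genes changed sign when values of 5 or more were left out, CG13113 (-1.49) and Gat (-0.0314), and when 1 array was: CG31709 (-1.19 to 0.635), gcm2 (-0.371 to 0.0458) and CG13113 (-1.56 to 1.75). The cause was not tested. Ratios without intensities leave the signal over background unknown.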
